A study of Mus musculus with 4 samples.

Results

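The genes examined here are the collagens, laminins and core matrix glycoproteins of a mouse mammary cancer cell line, that is, the genes for the fibers, sheets and adhesive proteins that cells lay down around themselves. The set holds 44 genes, chosen by name for their place in the extracellular matrix, and 39 of them have a row in the deposited table of 20197 genes. Col3a1, Col5a2, Col6a3, Nid2 and Thbs2 have no row in that table and were not analysed. The study asked how gene expression differs between 4T1 cells with high and low mitochondrial membrane potential (MMP). 4T1 is an established mouse breast cancer line, used here as wild-type cells grown in culture, without a host, stroma or drug. Every sample was labelled with the dye MitoSpy Red at 20 nM, which gathers in mitochondria of high membrane potential, and the brightest 5% (high MMP) and the dimmest 5% (low MMP) were sorted, 100000 cells per sample. Each group had 2 RNA-sequencing libraries, so that every comparison is of 2 against 2 samples of a single cell line, which the study's figure legends count as independent experiments.

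The matrix is built from a few kinds of parts. Fibrillar collagens assemble into tension-bearing fibers in connective tissue. Beneath epithelia, laminin trimers and type IV collagen form the basement membrane, which nidogens and the heparan sulfate proteoglycans perlecan and agrin tie together. Glycoproteins such as fibronectin, periostin and tenascin-C link fibers to integrins on the cell surface, and several of them are counted among the marks of an epithelial-mesenchymal transition (EMT).

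Values are normalized reads, which the deposited table scales to a total of 20000000 per library. Whole reads could be recovered from every value, and gave 22591970 to 26395015 reads per library, at which a count of 3 reads corresponds to 2.27 to 2.66 normalized reads. Of 8 markers of mammary epithelium, 7 have a row and Krt5 has none. Epcam lay between 3647 and 4619 normalized reads and Krt8 between 13146 and 19554. The lowest of the 7, Elf3, lay between 268 and 408. The 2 endothelial markers with a row summed to 1.74 to 6.20 and the 2 leukocyte markers to 60.6 to 149 normalized reads, nearly all of it from Cd68. The fibroblast list, of which 5 of 8 genes have a row, was nearly all Pdgfra and summed to 336 and 379 in the high MMP libraries and to 551 and 607 in the low MMP libraries. Thy1, Lum and Dpt of this list have no row, and Dcn lay between 1.74 and 9.09. In bulk RNA, fewer cells of a kind and less RNA per cell cannot be told apart.

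The 2 high MMP libraries stood on opposite sides of the low MMP libraries for many of these genes, and this comes before any comparison of the groups. For 18 of the 39 members, high MMP 1 was below both low MMP libraries and high MMP 2 above both, a pattern found in 9.74% of all genes. The reverse pattern was found for 0 members and for 2264 of all genes. Summed over the 39 members, the matrix genes took 0.611% of the reads in high MMP 1, 1.05% in high MMP 2, 0.871% in low MMP 1 and 0.787% in low MMP 2. The median member was 0.75 higher on the log2 scale in high MMP 2 than in high MMP 1, against 0.02 for the median of all genes. Between low MMP 2 and low MMP 1 the median member difference was -0.10. Without regard to sign, the median member differed by 0.82 between the high MMP libraries and by 0.24 between the low MMP libraries. For all genes these medians were 0.29 and 0.17, so the low MMP libraries were closer to each other over the whole table too.

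No member passed the test between the groups. In limma on log2(normalized reads + 1), 0 of 39 members and 0.0% of all genes had a Benjamini-Hochberg adjusted p under 0.05. Before adjustment, Postn and Lama3 were the 2 members with p under 0.05 and both were higher in high MMP cells, where 3.95% of all genes were, while 0 members were lower, where 6.01% of all genes were. edgeR without a block on the recovered reads called 0 members and 0.0% of all genes, again with Postn and Lama3 as the members under an unadjusted 0.05. DESeq2 called 1 of the 32 members to which it gave an adjusted p, Lama3, beside 0.985% of all genes with an adjusted p. Both high MMP values lay above both low MMP values for 6 members, a share near the 13.5% of all genes, and below both for 4 members, where 24.5% of all genes did so.

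**Figure D1:**
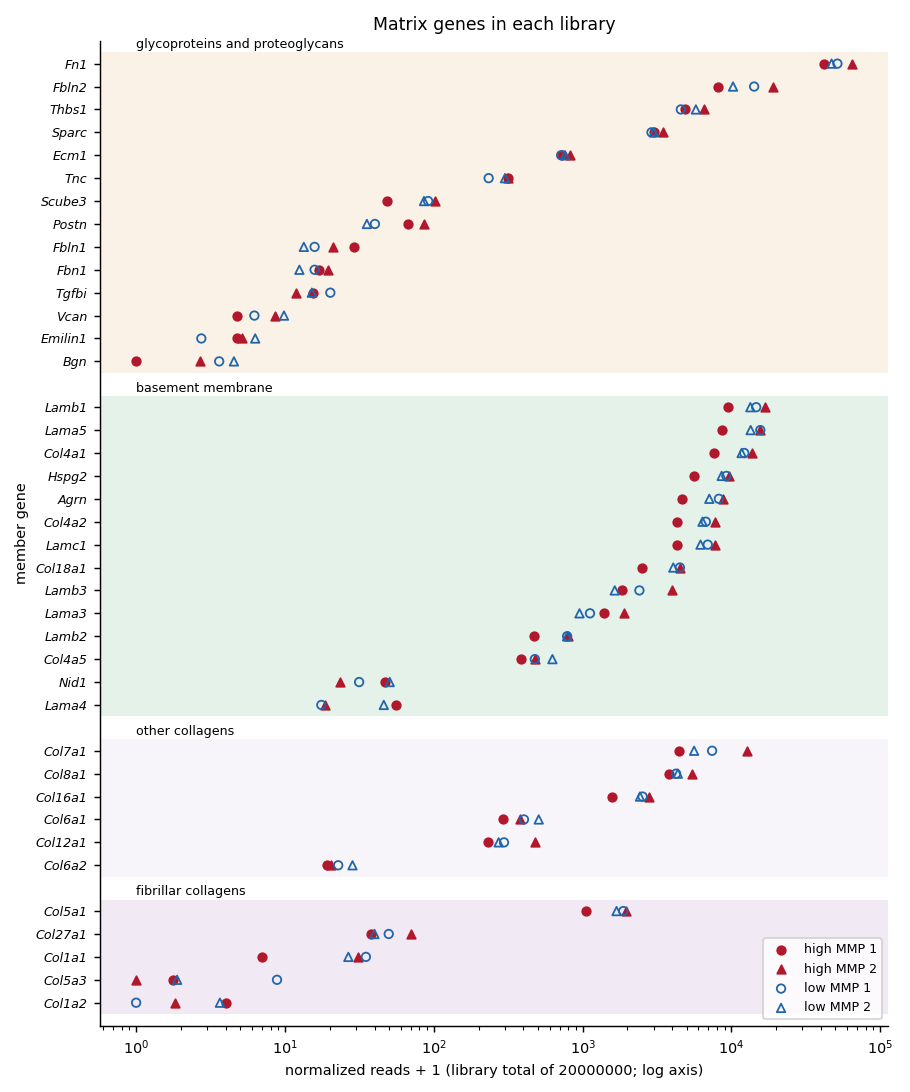
Normalized reads + 1 (log axis, library total of 20000000) of the 39 members with a row, in each of the 4 libraries, grouped by role and ordered by mean within a role. Filled red symbols are high MMP libraries and open blue symbols low MMP libraries, with circles for number 1 and triangles for number 2; in the basement membrane most circles of high MMP 1 sit left of the other 3 libraries.

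Fibrillar collagens were the least expressed role. The major collagen of bone and dermis, encoded by Col1a1 and Col1a2, had few reads in these cells. Col1a1 had 6.06 and 30.1 normalized reads in high MMP 1 and 2 and 34.0 and 25.7 in low MMP 1 and 2, from 8 to 39 reads. Its high MMP 1 value alone stood apart, and high MMP 2 lay between the low MMP values. The log2 difference was -1.04 ± 0.79 (SE, n = 2 per group, limma adjusted p = 0.773), and 0.03 without high MMP 1. Col1a2 had at most 4 reads in any library, and Col5a3, a chain of type V collagen, at most 9.

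Col5a1, the type V collagen chain that starts fibril assembly, was the most abundant fibrillar member. It had 1048 and 1969 normalized reads in high MMP 1 and 2 and 1875 and 1690.0 in low MMP 1 and 2. High MMP 1 was below and high MMP 2 above both low MMP libraries, and the log2 difference of -0.31 ± 0.33 (limma adjusted p = 0.855) became 0.15 without high MMP 1. Col27a1, a fibrillar collagen of cartilage, had 37.1, 69.5, 48.8 and 39.0 in the same order, with a log2 difference of 0.22 ± 0.37 (limma adjusted p = 0.931).

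Among the other collagens, the type VI pair differed from the rest. Type VI collagen forms beaded microfilaments around cells, and its α1 chain, Col6a1, had 292 and 377 normalized reads in high MMP 1 and 2 and 403 and 506 in low MMP 1 and 2. Its α2 chain, Col6a2, had 18.2 and 19.2 against 21.8 and 27.4. Both genes were lower in both high MMP libraries, by log2 differences of -0.44 ± 0.19 (limma adjusted p = 0.571) and -0.37 ± 0.27 (limma adjusted p = 0.758). Of the 34 members with a mean of at least 10, only these lay below both low MMP libraries in both high MMP libraries. Of all 12902 genes of that level, 3059 did so. Per kb of transcript, Col6a1 was 18.3 to 22.2 times as abundant as Col6a2.

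Col7a1, the collagen of the anchoring fibrils that fasten epithelium to the underlying stroma, had the widest spread between high MMP libraries of any member above 100 normalized reads in every library. It had 4450.1 and 12645 normalized reads in high MMP 1 and 2 and 7417 and 5615 in low MMP 1 and 2, a 2.84-fold gap between the 2 high MMP libraries. The log2 difference of 0.22 ± 0.54 (limma adjusted p = 0.964) was 0.97 without high MMP 1 and -0.54 without high MMP 2. Its promoter and that of Postn are given because these genes showed this spread and the largest difference in favor of high MMP cells. The windows are the 250 bases before the RefSeq transcript start on GRCm38.p6, both on the plus strand, Col7a1 at chr9:108953336-108953585 and Postn at chr3:54360857-54361106. Capitals mark matches on either strand to the TATA box, searched as TATAAA, to the CCAAT box, to the GC box, searched as GGGCGG, or to the AP-1 motif, searched as TGANTCA. No matches overlapped in these windows.
Col7a1: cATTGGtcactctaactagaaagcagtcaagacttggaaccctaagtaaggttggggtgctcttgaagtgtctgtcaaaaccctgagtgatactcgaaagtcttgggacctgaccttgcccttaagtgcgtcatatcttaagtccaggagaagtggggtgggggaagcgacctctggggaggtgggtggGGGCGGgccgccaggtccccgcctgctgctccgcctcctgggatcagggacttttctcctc
Postn: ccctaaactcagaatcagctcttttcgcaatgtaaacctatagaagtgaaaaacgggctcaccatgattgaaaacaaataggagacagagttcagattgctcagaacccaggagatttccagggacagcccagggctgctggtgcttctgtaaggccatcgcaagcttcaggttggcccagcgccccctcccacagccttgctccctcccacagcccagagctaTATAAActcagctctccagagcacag
Col7a1 held a GC box 61 to 56 bases before the start and a CCAAT box on the other strand 249 to 245 bases before it. Postn held a TATA box 26 to 21 bases before the start. Over the 39 promoter windows of the 32 members found in the RefSeq table, the GC box was in 69.2% against 32.7% of all 32851 windows. The CCAAT box was in 28.2% against 33.8%, the TATA box in 10.3% against 12.4% and the AP-1 motif in 5.13% against 6.75%. A match is only a run of letters.

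The remaining collagens of this role were lowest in high MMP 1 and highest in high MMP 2. Col12a1, a collagen that decorates fibrils, had 230.3 and 474 normalized reads in high MMP 1 and 2 and 296 and 272 in low MMP 1 and 2. It belongs to the study's quantitative PCR panel of EMT genes, which was used there on cells treated with acetate. Its log2 difference was 0.22 ± 0.37 (limma adjusted p = 0.928), and -0.30 without high MMP 2. Col8a1, a short-chain network collagen, had 3807, 5441, 4248 and 4364 in that order, and Col16a1, a fibril-associated collagen, 1585, 2803, 2529.9 and 2429.

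The basement membrane genes were abundant, and 9 of the 14 with a row had high MMP 1 below and high MMP 2 above both low MMP libraries. The median log2 difference of the role was -0.24, beside -0.04 for all genes, with 11 members negative and 3 positive. Without high MMP 1 the median was 0.15, and without high MMP 2 it was -0.60.

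The type IV collagen chains moved together from library to library. Col4a1 had 7656 and 13665 normalized reads in high MMP 1 and 2 and 12206 and 11716 in low MMP 1 and 2. Col4a2 had 4329 and 7721 against 6732 and 6396. Per kb of transcript, Col4a1 stood at 1.72, 1.73, 1.77 and 1.79 times Col4a2 in the 4 libraries, a ratio lower in both high MMP libraries that ranged over 1.04-fold while each gene ranged over 1.78-fold between the high MMP libraries. The genes lie head to head on chromosome 8 of GRCm38, Col4a1 on the minus strand at chr8:11198423-11312826 and Col4a2 on the plus strand at chr8:11312805-11449287, and their annotated first exons share 22 bases. That shared stretch, at chr8:11312805-11312826 on the Col4a2 strand, is shown for this layout, with a GC box match in capitals.
Col4a1/Col4a2: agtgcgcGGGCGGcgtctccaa
Reads from the shared bases could be counted for either gene or neither, but they are a small part of transcripts of 6.45 and 6.62 kb. Col4a5, a chain of other type IV trimers, did not keep this ratio, with 386 and 479 in high MMP 1 and 2 and 477 and 626 in low MMP 1 and 2 (log2 difference -0.34 ± 0.19, limma adjusted p = 0.684).

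Lama5, Lamb1 and Lamc1 encode the α5, β1 and γ1 chains of the broadly expressed epithelial laminin. Lama5 had 8623 and 15657 normalized reads in high MMP 1 and 2 and 15639.5 and 13466 in low MMP 1 and 2. Lamb1 had 9536 and 16854 against 14667 and 13399.5, and Lamc1 had 4305 and 7706 against 6933 and 6199. All 3 genes had high MMP 1 at the bottom and high MMP 2 at the top, with log2 differences of -0.32 ± 0.32, -0.15 ± 0.30 and -0.19 ± 0.31 (limma adjusted p = 0.845, 0.952 and 0.926) that became 0.11, 0.27 and 0.23 without high MMP 1. Lamb2, the alternative β2 chain, had 469, 792, 786 and 786 in the same order.

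Lama3 and Lamb3 encode chains of the laminin that anchors epithelial cells to their basement membrane through hemidesmosomes. Lama3 had 1388 and 1895 normalized reads in high MMP 1 and 2 and 1120.2 and 953 in low MMP 1 and 2. Both high MMP libraries were above both low MMP libraries, at 1641 ± 358 against 1036 ± 119 (mean ± SD, n = 2), a log2 difference of 0.65 ± 0.19 that did not pass in limma (adjusted p = 0.472) and passed in DESeq2 (adjusted p = 0.0241). It was 0.43 in high MMP 1 and 0.87 in high MMP 2 against the low MMP mean. Lamb3 had 1834 and 3979.9 against 2408 and 1644, so that the groups overlapped, with a log2 difference of 0.44 ± 0.43 (limma adjusted p = 0.84) that was -0.12 without high MMP 2.

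Within each library, Lama3 and Lamb3 stood higher against their counterparts in the broadly expressed laminin in high MMP cells. Per kb of transcript, Lama3 was at 0.174 and 0.131 of Lama5 in high MMP 1 and 2 and at 0.0773 and 0.0764 in low MMP 1 and 2. Lamb3 was at 0.229 and 0.281 of Lamb1 against 0.195 and 0.146. In each of these ratios both high MMP libraries lay above both low MMP libraries, although the high MMP libraries did not keep a common order among themselves. These ratios were formed with the values known and carry no test, and 2 against 2 samples cannot go below p = 0.333 in a two-sided exact permutation test. Ratios within the broadly expressed laminin also separated the groups, over narrower ranges, so that non-overlap is not particular to Lama3 and Lamb3. Lama5 was at 1.34 and 1.36 times Lamc1 in high MMP 1 and 2 and at 1.51 and 1.45 times in low MMP 1 and 2, and Lamb1 was at 2.92 and 2.88 times Lamc1 against 2.79 and 2.85. Other ratios that were formed overlapped between the groups and are not drawn. Among them, Lama3 was at 0.349 and 0.220 of Lamb3 in high MMP 1 and 2 and at 0.215 and 0.267 in low MMP 1 and 2.

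**Figure D2:**
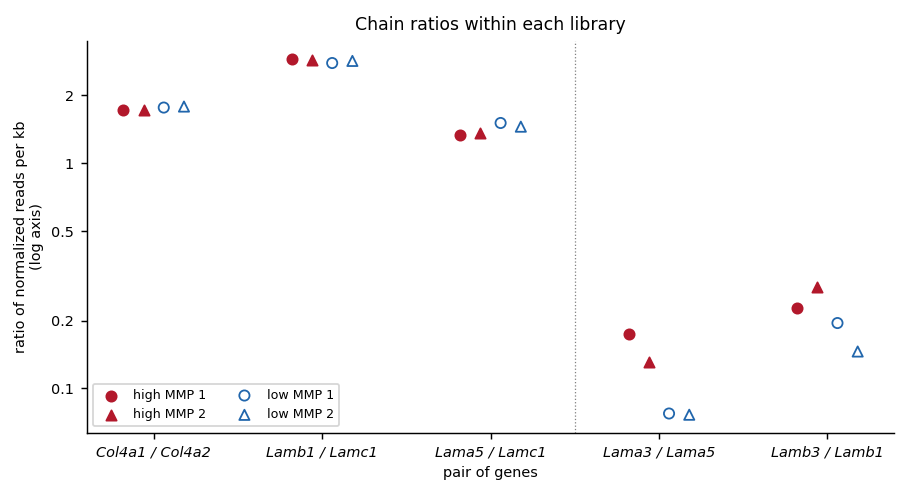
Ratio of normalized reads per kb (log axis) for 5 pairs of genes, with 1 symbol per library; filled red symbols are high MMP, open blue symbols low MMP, circles number 1 and triangles number 2. Left of the dotted line, ratios among collagen IV chains and among chains of the broadly expressed laminin; right of it, ratios of Lama3 and Lamb3 to their counterparts, where both red symbols lie above both blue symbols; the groups also separate in the narrower ratios on the left.

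Perlecan, agrin and Col18a1 of the basement membrane followed the collagen IV pattern. Hspg2, which encodes perlecan, had 5604 and 9595 normalized reads in high MMP 1 and 2 and 9247 and 8600.4 in low MMP 1 and 2. Agrn, which encodes agrin, had 4690.3 and 8753 against 8238 and 7101. Col18a1, the source of endostatin, had 2503 and 4512 against 4505 and 4068. All 3 had the lowest value in high MMP 1 and the highest in high MMP 2. The low members went the other way, with Nid1, encoding nidogen-1, at 46.2 and 22.6 against 30.5 and 49.6, and Lama4, a laminin chain of vessels and muscle, at 54.6 and 17.6 against 16.6 and 45.1. For Nid1 and Lama4, high MMP 1 and low MMP 2 were the higher libraries.

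Glycoproteins and proteoglycans held the most abundant member and the one with the largest difference in favor of high MMP cells. Postn, which encodes periostin, a glycoprotein of remodelling stroma on the study's quantitative PCR panel, had 65.9 and 85.4 normalized reads in high MMP 1 and 2 and 39.2 and 34.5 in low MMP 1 and 2. Both high MMP libraries were above both low MMP libraries, at 75.6 ± 13.7 against 36.9 ± 3.33 (mean ± SD, n = 2), from 39 to 102 reads per library. The log2 difference was 1.01 ± 0.22 (unadjusted p = 0.00974 and limma adjusted p = 0.472, DESeq2 adjusted p = 0.330), and between 0.82 and 1.19 without any 1 library. Per kb, Postn averaged 17.6 normalized reads against 6186 for Fn1.

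Fn1, encoding fibronectin, had 42010.2 and 65096 normalized reads in high MMP 1 and 2 and 51544 and 47109.7 in low MMP 1 and 2. Its high MMP libraries again lay on both sides, with a log2 difference of 0.09 ± 0.27 (limma adjusted p = 0.973), and -0.23 without high MMP 2. Fbln2, encoding fibulin-2, spread further, with 8087 and 18977 against 14212 and 10255 and a log2 difference of 0.04 ± 0.46 (limma adjusted p = 0.994).

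Sparc, which encodes a collagen-binding protein on the quantitative PCR panel, varied little. It had 3034 and 3449 normalized reads in high MMP 1 and 2 and 2902 and 3014 in low MMP 1 and 2, with a log2 difference of 0.13 ± 0.10 (limma adjusted p = 0.776). Scube3, a secreted protein on the same panel, had 47.7 and 100.4 against 90.7 and 85.0 (log2 difference -0.34 ± 0.40, limma adjusted p = 0.866), and 0.19 without high MMP 1. Of the 5 members on this panel, which also holds genes outside the set, Postn and Sparc were thus higher in both high MMP libraries, beside 13.5% of all genes, and Col1a1, Col12a1 and Scube3 had overlapping groups.

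Fbln1, encoding fibulin-1, had 28.0 and 20.1 normalized reads in high MMP 1 and 2 and 14.8 and 12.4 in low MMP 1 and 2, from 14 to 37 reads. It was higher in both high MMP libraries, with a log2 difference of 0.77 ± 0.31 (limma adjusted p = 0.549). Tnc, which encodes tenascin-C, had 314.5 and 313.8 against 233 and 300.1, also higher in both (log2 difference 0.25 ± 0.16, limma adjusted p = 0.715). Fbn1, encoding the microfibril protein fibrillin-1, had 15.9 and 18.4 against 14.8 and 11.5. Tgfbi, an adhesive protein named for its induction by TGF-beta, had 14.4 and 10.9 against 19.2 and 14.2, with a log2 difference of -0.37 ± 0.33 (limma adjusted p = 0.811).

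The other glycoproteins gave little contrast. Thbs1, encoding thrombospondin-1, had 4855 and 6555 normalized reads in high MMP 1 and 2 and 4571 and 5770.2 in low MMP 1 and 2. Ecm1 had 730.4 and 816 against 717 and 760.4. Bgn, Vcan and Emilin1 had at most 10 reads in any library, and Bgn was listed at 0 in high MMP 1.

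**Figure D3:**
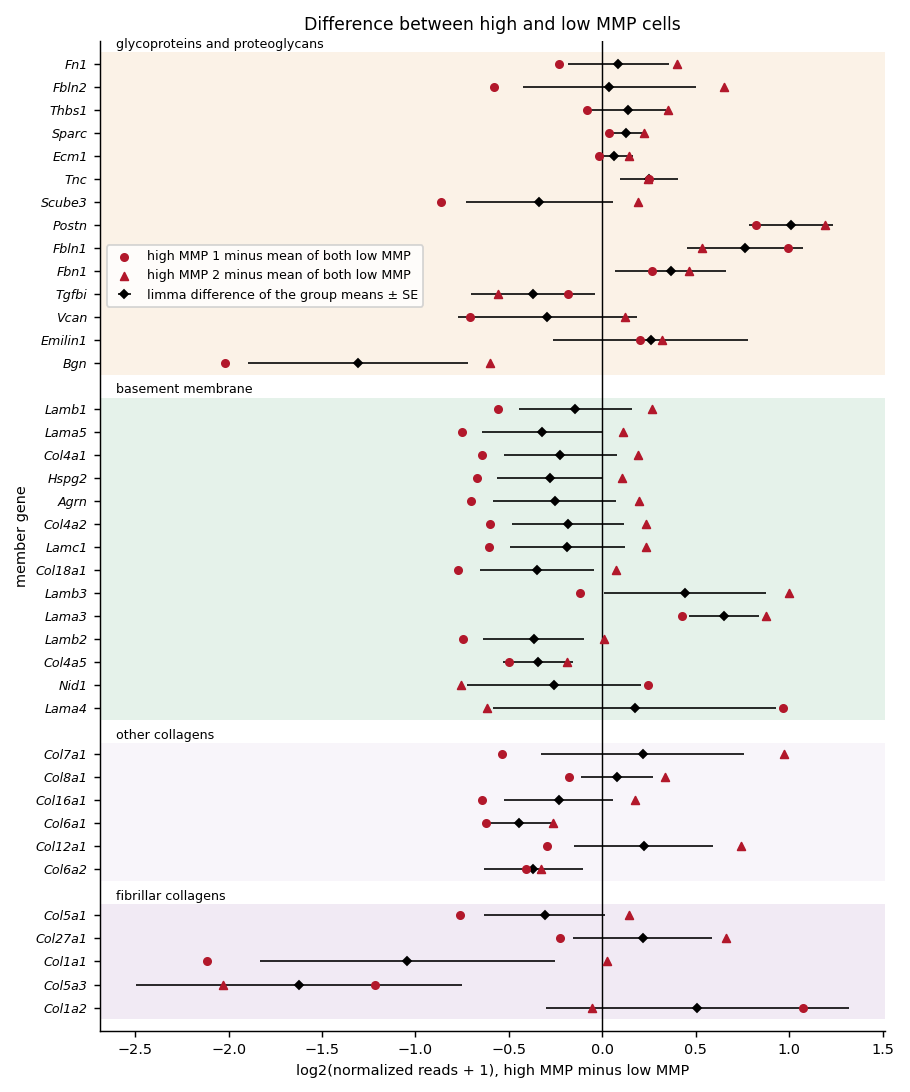
Difference in log2(normalized reads + 1), high MMP minus low MMP, for each member; black diamonds and bars are the limma difference of the group means ± SE, red circles and triangles are high MMP 1 and high MMP 2 against the mean of both low MMP libraries. The 2 red symbols straddle 0 for most basement membrane genes, and both lie right of 0 for Postn, Lama3, Fbln1, Fbn1, Tnc, Sparc and the scarcely read Emilin1.

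Set side by side, the roles had median log2 differences of -0.31 for fibrillar collagens (5 genes), -0.08 for other collagens (6 genes), -0.24 for the basement membrane (14 genes) and 0.11 for glycoproteins and proteoglycans (14 genes). All genes had a median of -0.04. Without high MMP 1 these medians became 0.03, 0.26, 0.15 and 0.28, and without high MMP 2 they became -0.76, -0.47, -0.60 and -0.05, so that the direction of all 4 followed the choice of library. The order of all 4 medians, in contrast, was kept in both cases. Fibrillar collagens were lowest, followed by the basement membrane, other collagens, and glycoproteins and proteoglycans. As summed reads per kb, the basement membrane genes were at 0.743 and 0.834 of the glycoproteins in high MMP 1 and 2 and at 0.954 and 0.951 in low MMP 1 and 2. Fibrillar collagens were at 0.0140 and 0.0166 of the glycoproteins against 0.0203 and 0.0199, and at 0.0189 and 0.0199 of the basement membrane genes against 0.0213 and 0.0210. In all 3 ratios both high MMP libraries were below both low MMP libraries, with no test. Any 2 of these ratios fix the third, so they are not 3 separate observations. Fn1 is the largest part of the glycoprotein sum, and the fibrillar sum is nearly all Col5a1, at 125 of 131 reads per kb in high MMP 1 and 234 of 249 in high MMP 2.

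The members share long, GC-rich transcripts. Over all genes, reads moved with transcript length, and less with GC when lengths were pooled. The median member transcript was 6.05 kb with 55.7% GC, against 2.37 kb and 49.6% for all genes. Where a gene's mean was 10 or more, the median deviation of high MMP 1 from the other 3 libraries went from 0.165 on the log2 scale for transcripts up to 1 kb to -0.184 for those over 8 kb, and that of high MMP 2 from -0.146 to 0.182. The 29 members of that level over 4 kb deviated further, with medians of -0.64 in high MMP 1 and 0.40 in high MMP 2, against -0.12 and 0.08 for all 4088 genes of that level and length. High MMP 1 below and high MMP 2 above both low MMP libraries was the pattern of 18 of these 29 members and of 21.8% of these genes, and of 0 of the 5 members of 4 kb or less, where 8.03% of genes had it. For the 17 members over 4 kb with over 55% GC it was 13, beside 26.3% of genes in that class. These members had medians of -0.75 in high MMP 1 and 0.41 in high MMP 2, against -0.27 and 0.10 for the 634 genes. Genes over 4 kb with GC of 55% or less had medians of -0.11 and 0.08. By GC alone, genes over 55% deviated by -0.094 in high MMP 1 and -0.022 in high MMP 2, against -0.013 and -0.007 for the rest, and 12.6% and 12.3% of them had the pattern. The part of length and GC in the members' values was not tested.

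**Figure D4:**
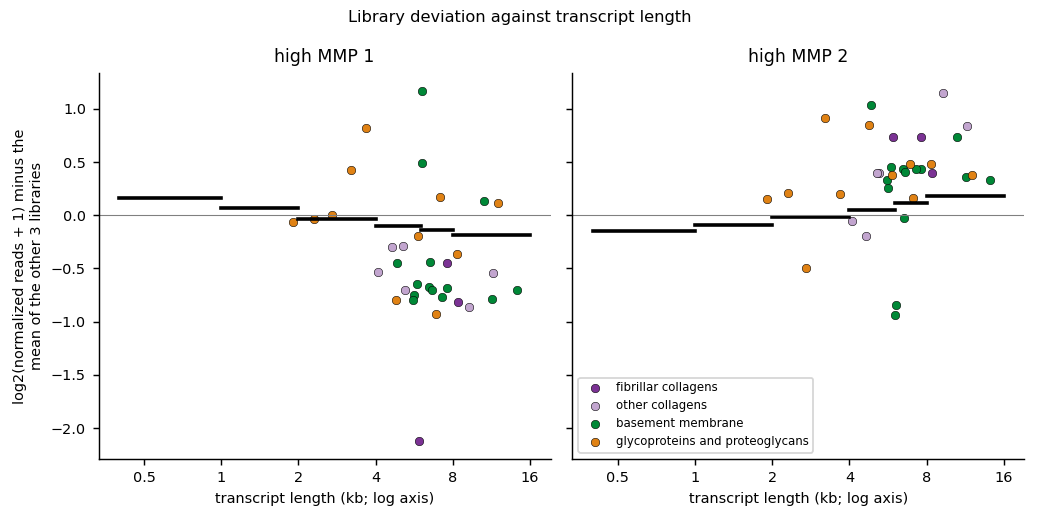
Deviation of high MMP 1 (left) and high MMP 2 (right) from the mean of the other 3 libraries, in log2(normalized reads + 1), against transcript length in kb (log axis). Points are members with a mean of at least 10, colored by role; black bars are medians of all genes in 6 length classes, the outer classes drawn from 0.4 and to 16 kb. The bars fall with length in high MMP 1 and climb with it in high MMP 2, and most members lie beyond them.

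Other marks moved with the libraries and the groups. All 20 listed genes of the G2/M phase had a row. In both high MMP libraries, 17 of them were above both low MMP libraries, beside 13.5% of all genes. The median log2 difference of the 20 was 0.65, beside -0.04 for all genes. Postn and Lama3 were likewise higher in both high MMP libraries. Of 10 immediate-early genes, Junb, Egr1, Egr2 and Ier2 were above both low MMP libraries in both high MMP libraries. These were 4 of 10, beside 13.5% of all genes, and the median log2 difference of the 10 was 0.34. Others moved with the libraries instead. Fos had 2419 and 520.5 normalized reads in high MMP 1 and 2 and 326 and 2358 in low MMP 1 and 2, and was thus high in the same libraries as Nid1 and Lama4. The part of cell cycle phase and of immediate-early expression in the members' values was not tested.

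The genes that make, cross-link and bind this matrix were read from the same fit, and 0 of them passed in limma after adjustment. Of 26 enzymes and chaperones of collagen making with a row, 20 had a negative log2 difference, beside 11838 of all 20197 genes. At an unadjusted p under 0.05, 3 were lower in high MMP cells, beside 6.01% of all genes, and 1 was higher, beside 3.95%. P4ha1, a prolyl hydroxylase subunit that stabilizes the collagen helix, had 1456 and 1705 normalized reads in high MMP 1 and 2 and 2063 and 2165 in low MMP 1 and 2 (log2 difference -0.42 ± 0.11, limma adjusted p = 0.472). The subunit P4ha2 had 201.6 and 255 against 324 and 335 (-0.54 ± 0.15, limma adjusted p = 0.472). Adamts14, a procollagen N-propeptidase, had 245 and 333 against 468 and 482 (-0.73 ± 0.18, limma adjusted p = 0.472). Loxl1, which cross-links elastin and collagen, was the higher one, at 32.6 and 20.1 against 6.97 and 13.3.

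Of 26 matrix receptors with a row, 3 were lower and 2 higher at an unadjusted p under 0.05, beside 6.01% and 3.95% of all genes. Itgb6, the β6 integrin chain of epithelia, which binds fibronectin and latent TGF-beta, had 179 and 166 normalized reads in high MMP 1 and 2 and 66.3 and 85.9 in low MMP 1 and 2. Its log2 difference was 1.18 ± 0.19, which did not pass in limma (adjusted p = 0.472) and passed in DESeq2 (adjusted p = 0.00537). Itga10, a collagen-binding integrin chain, had 9.85 and 10.0 against 29.6 and 31.9 (-1.54 ± 0.26, limma adjusted p = 0.472). The syndecan Sdc3 was higher, at 332 and 400.0 against 251 and 262, and the laminin receptor Bcam was lower, at 163 and 199 against 239.7 and 236; the fifth, Itga9, had at most 1 read in any library.

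Of 29 other structural matrix genes with a row, 2 were higher and 0 lower at an unadjusted p under 0.05, beside 3.95% and 6.01% of all genes. Col17a1, the transmembrane collagen of hemidesmosomes, had 33.3 and 27.6 normalized reads in high MMP 1 and 2 and 19.2 and 14.2 in low MMP 1 and 2 (log2 difference 0.84 ± 0.29, limma adjusted p = 0.474). Ccn1, a matricellular protein that binds integrins, had 11483 and 12525 against 6324 and 9365, with a log2 difference of 0.64 ± 0.22 that did not pass in limma (adjusted p = 0.472) and passed in DESeq2 (adjusted p = 0.0399).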

How the data were processed

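RNA from 2 high MMP and 2 low MMP samples of 4T1 cells was made into libraries with a stranded Illumina kit. Per the methods and labels, the authors aligned reads to the mouse transcriptome (GRCm38, mm10) with STAR, counted per gene (HTSeq is also named), divided by library size and kept genes expressed in enough samples. The tool versions, annotation release, and treatment of strand and of reads with several matches are not given in the sources used here. The deposited values are a signal, gene counts scaled to 20000000 per library, and 100.0% of them were whole reads within 0.05 of a read, which gave the depth of each library. Gene symbols matched 19993 of 20197 IDs, and positions and transcript lengths (the longest coding transcript) came from GENCODE on GRCm38.

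limma 3.58.1 (R 4.3.3, lmFit and eBayes with trend, two-sided) was fitted to log2(value + 1) over all genes with no block, and p-values were Benjamini-Hochberg adjusted over all 20197. A fold change on this scale understates that of low genes. edgeR 4.0.16 and DESeq2 1.42.0 on the recovered reads were alternatives, as were pseudocounts of 0.5 and 10, a filter on a mean of at least 10, other scalings, blocks, and leaving out each library. The fits were run on simulated counts with known changes, as a check of the code. The simulated libraries of a group had no shared shift between them, unlike these data. Members described with all 4 values were, in each role, the 2 of highest mean and, with a mean of at least 10, the 2 with the largest log2 difference in each direction, plus the quantitative PCR panel; others were added after their values were seen. Members and lists were chosen with earlier results of these data known. The study counts the samples of a group as independent experiments, and p-values measure the spread between them, over a single cell line.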

Additional observations from a re-analysis of the deposited data

How the results depend on the processing

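No member or pathway gene was called by limma under any pseudocount, filter, scaling or left-out library, and no named member changed sign except when a library was left out. Counts of called genes moved with the tool. DESeq2 called 118 genes, 1 member (Lama3) and 2 pathway genes (Ccn1 and Itgb6), where limma called 0. The labels share replicate numbers between groups, but samples with the same number deviated in opposite directions (correlation -0.42 over 12902 genes and -0.72 over the 34 members with a mean of at least 10). The numbers were therefore not used as pairs, and whether those of 1 group are crossed could not be settled. edgeR with the replicate number as a block called 106 genes, 0 members and 1 pathway gene, and limma with the replicate block called 0. With the numbers crossed, a pairing chosen after seeing the data, edgeR called 733 genes, 4 members and 14 pathway genes, and limma called 0.

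Leaving out each library in turn, the members that did not overlap between groups numbered 15 to 33, beside 61.5% to 74.7% of all genes, against 10 with all libraries, beside 37.9% of all genes. The median differences ranged from -0.76 to 0.027 for fibrillar collagens, from -0.47 to 0.26 for other collagens, from -0.60 to 0.15 for the basement membrane and from -0.048 to 0.28 for glycoproteins and proteoglycans. The log2 differences that changed sign ranged from -2.11 to 0.027 for Col1a1, -0.76 to 0.15 for Col5a1, -0.77 to 0.076 for Col18a1, -0.75 to 0.11 for Lama5, -0.56 to 0.27 for Lamb1, -0.74 to 0.0099 for Lamb2 and -0.87 to 0.19 for Scube3, positive without high MMP 1, and from -0.23 to 0.66 for Col27a1, -0.54 to 0.97 for Col7a1, -0.18 to 0.34 for Col8a1, -0.30 to 0.74 for Col12a1, -0.12 to 1.00 for Lamb3, -0.23 to 0.40 for Fn1 and -0.58 to 0.65 for Fbln2, negative without high MMP 2 and, for Fbln2, also -0.20 without low MMP 2. The cause was not tested. Members with few reads, such as Col1a2, Col5a3, Bgn, Vcan and Emilin1, are limited by depth.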
